A study of Bos taurus with 12 samples.

Results

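Autophagy is the route by which a cell encloses its own cytoplasm in a double membrane and delivers it to the lysosome, where proteases of the cathepsin family break it down. It is known to rise in many tissues when nutrients are short, and in the mammary gland autophagy and lysosomal proteolysis are known for their part in the regression of the gland after lactation. The 10 genes described here were chosen by name, with earlier results of these data known. They follow that route: ULK1 and BECN1 for initiation, ATG5 and ATG7 for conjugation, MAP1LC3B and GABARAPL1 of the ATG8 family, the cargo receptor SQSTM1, the lysosomal membrane protein LAMP1, and the proteases CTSB and CTSL. They are 10 of the 12787 genes that could be named on the array.

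Mammary gland biopsies were taken from midlactation, multiparous Holstein cows at the end of the control period (CONT, day 0, feed offered ad libitum) and on day 6 of the restriction period (REST), when feed was limited to 50% of the net energy requirement for lactation. Each of the 6 cows that the labels name was sampled in both periods, giving 12 one-colour (Cy3) bovine oligonucleotide arrays, and cows are numbered 1 to 6. The series description counts 5 cows, and the methods of the study state that a Holstein cow was excluded for mastitis without naming it, so the changes and calls of the members and listed genes were also computed without each cow in turn. A biopsy holds every cell type of the gland, and a lower signal from fewer cells of a type cannot be told apart from less RNA per cell.

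The arrays of cows 5 and 6, which shared a slide, stood apart in brightness. On their 4 arrays the processed signal had a 75th percentile of 73.0 to 116 intensity units, against 252 to 389 on the other 8, and 41.9 to 48.0% of their spots were well above background, while on the others 61.8 to 67.9% were. The 75th percentile was higher in REST than in CONT in 6 of 6 cows, by 0.29 ± 0.10 (mean ± SD of log2 values), and its part in the changes below was not tested. Signals are given below in log2 units relative to the 75th percentile of the array, so they compare arrays for 1 probe and never 1 gene with another. The tissue was checked against markers of its secretory epithelium: 6 of the 7 luminal epithelial markers with a probe (KRT8, KRT18, KRT19, EPCAM, ELF5 and LALBA) were well above background, and CDH1 did not pass that filter. Of the adipocyte markers, PLIN1, LEP and CIDEC did not pass it either, while FABP4 did, with 7.14 to 7.72 in CONT.

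Of the 10 genes, 9 had a probe bright enough to test, and 1 of these 9, SQSTM1, passed an adjusted p of 0.1 in limma with REST and CONT paired by cow. Over all genes tested in the same way, 1287 of 7932 passed (16.2%); 7.12% of the tested genes were called higher in REST and 9.10% lower. The share among the 9 genes is thus no larger than that of the array as a whole. The changes of the 9 genes lay between -0.07 and 0.38 on the log2 scale, with a median of 0.05, against a median of -0.01 over all tested genes. In cows 1 to 6 the median over these 9 genes was 0.31, 0.29, -0.01, -0.04, 0.04 and 0.08, so that cows 1 and 2, which shared a slide, had the highest values. With normexp background correction the median over the 9 genes was 0.19 and with quantile normalization 0.12. Their median absolute change was 0.07, and that of all tested genes was 0.15. Of 26 probes for the 10 genes, 20 were tested and 1 was called (16.0% of all tested probes were called), while 2 of the 20 had an unadjusted p under 0.05. CONT and REST values overlapped for each of the 26 probes, and over all tested probes 2.26% did not overlap.

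**Figure D1:**
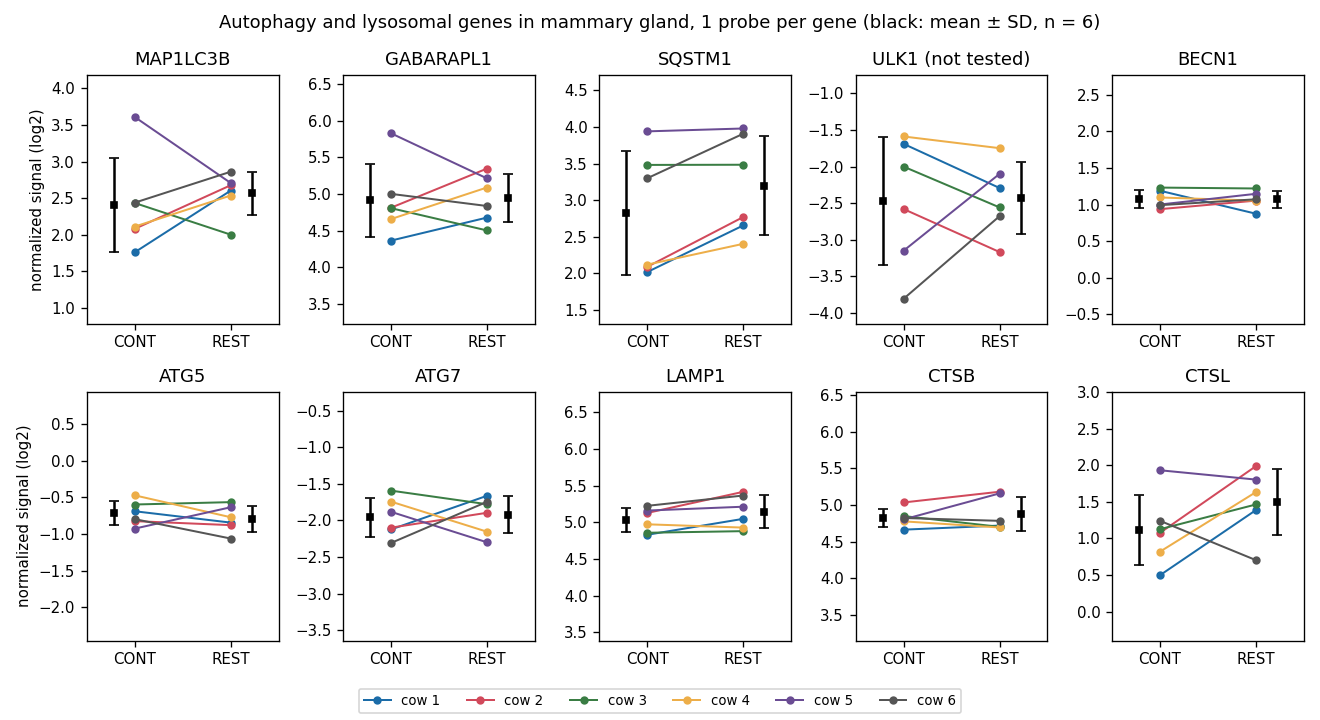
Normalized signal (log2, relative to the 75th percentile of the array) of each of the 10 genes in CONT and REST, with 1 line per cow and black squares for the mean ± SD of 6 cows; every panel spans the same number of log2 units. SQSTM1 rose or stayed level in every cow, while BECN1, ATG5, LAMP1 and CTSB moved little and MAP1LC3B and GABARAPL1 were lower in REST in cow 5.

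**Figure D2:**
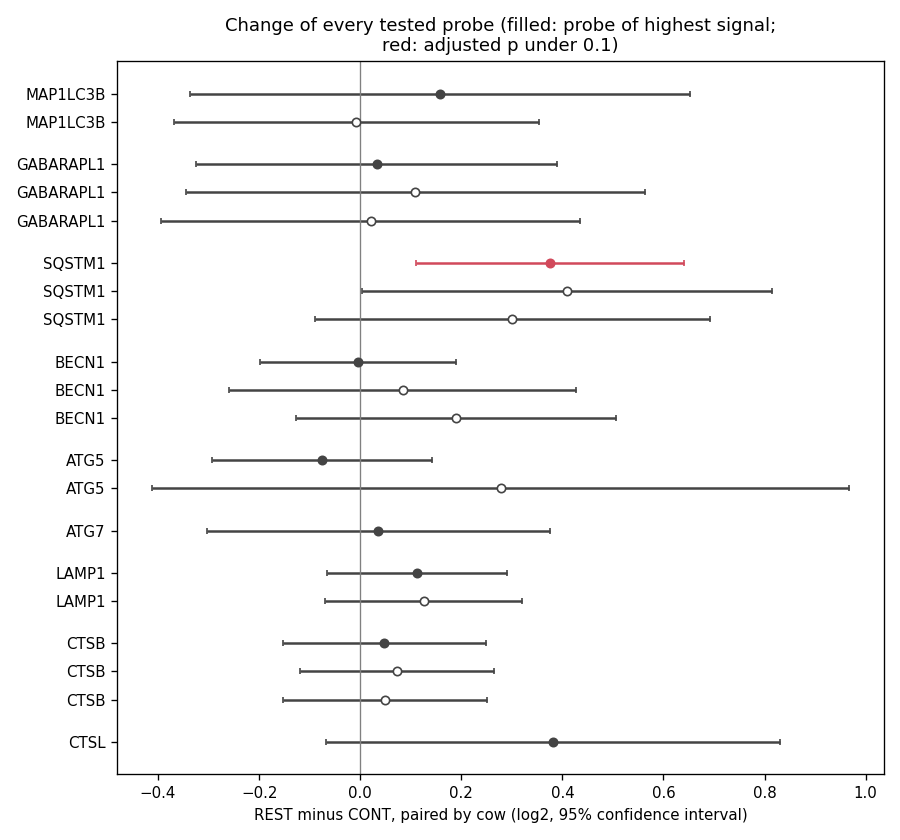
REST minus CONT for the 20 tested probes (log2, paired by cow, bars are 95% confidence intervals), grouped by gene with filled points for the probe of highest signal. The interval of the called SQSTM1 probe runs from 0.11 to 0.64, and the other 2 SQSTM1 probes lie at 0.41 and 0.30.

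Initiation of autophagy depends on ULK1, a kinase that responds to energy and amino acid supply, and on BECN1, the scaffold of the lipid kinase complex that marks the site of the new membrane. BECN1 (NM_001033627) did not differ beyond its error. Its probe of highest signal read 1.19, 0.94, 1.23, 1.097, 1.0006 and 0.99 in CONT for cows 1 to 6 and 0.88, 1.05, 1.22, 1.05, 1.15 and 1.07 in REST. The mean was 1.07 ± 0.12 in CONT and 1.07 ± 0.12 in REST (mean ± SD, n = 6), and the 95% confidence interval of the change ran from -0.20 to 0.19 (limma adjusted p = 0.980). The other 2 probes of BECN1 changed by 0.08 and 0.19 and were not called either (adjusted p = 0.754 and 0.411).

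ULK1 (NM_001205927) had a single probe, which was well above background on 4 of 6 CONT and 5 of 6 REST arrays and was therefore not tested with the others. Its values were -1.69, -2.58, -1.9998, -1.59, -3.15 and -3.80 in CONT and -2.29, -3.17, -2.56, -1.75, -2.10 and -2.68 in REST. The direction divided along the slides: the signal was lower in REST in cows 1 to 4, by 0.16 to 0.60, and higher in cows 5 and 6, by 1.05 and 1.13. The 3 arrays on which the probe was not well above background (CONT of cows 5 and 6, and REST of cow 6) all belonged to the dim slide. With no filter on dim probes the change over the 6 cows was 0.05 (95% confidence interval -0.63 to 0.72, limma adjusted p = 0.944), and without cow 6 it was -0.17 (adjusted p = 0.700). When the dim slide was left out, a choice made after seeing the data that drops the 2 cows of opposite direction, the probe was called lower in the other 4 (-0.48, SE 0.12, adjusted p = 0.0832).

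ATG5 and ATG7 act in the enzyme system that couples ATG8 proteins to lipid. ATG5 (NM_001034579) read -0.69, -0.82, -0.60, -0.47, -0.93 and -0.80 in CONT and -0.84, -0.88, -0.57, -0.77, -0.64 and -1.06 in REST. It was lower in 4 of 6 cows, with a mean change of -0.07 (95% confidence interval -0.29 to 0.14, limma adjusted p = 0.646). A second, dimmer ATG5 probe changed by 0.28 with an SE of 0.30 (adjusted p = 0.587). That value came from cow 5, whose CONT array gave -3.50 and was not well above background, against -1.85 to -1.13 on the other CONT arrays. The third ATG5 probe was not tested, since it was above background only on the 8 arrays of cows 1 to 4, and was lower in REST in 6 of 6 cows, by 0.12 to 0.81.

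ATG7 (NM_001083795), the activating enzyme of the system, was dim on all its probes. The tested probe passed the filter through REST, since CONT of cow 6 was not well above background. It read -2.12, -2.10, -1.59, -1.74, -1.88 and -2.31 in CONT and -1.66, -1.90, -1.78, -2.15, -2.30 and -1.75 in REST, higher in 3 cows and lower in 3. The change was 0.04 (95% confidence interval -0.30 to 0.37, limma adjusted p = 0.901), and with normexp background correction it was -0.14 (adjusted p = 0.388). The other 4 probes of ATG7 were not tested, and 1 of them was above background on no array (0 of 12).

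MAP1LC3B and GABARAPL1 encode ATG8 proteins, which are anchored in the autophagosome membrane and bind the cargo receptors. Neither changed beyond the spread between cows, yet in both genes the cows moved in different directions. MAP1LC3B (NM_001001169) read 1.76, 2.08, 2.43, 2.11, 3.61 and 2.44 in CONT and 2.60, 2.68, 2.003, 2.54, 2.71 and 2.86 in REST. It was higher in REST in cows 1, 2, 4 and 6, by 0.42 to 0.84, and lower in cow 3 (-0.43) and cow 5 (-0.90). The mean change was 0.16 with a 95% confidence interval from -0.34 to 0.65 (limma adjusted p = 0.672). The second MAP1LC3B probe gave the same directions in each cow, with changes of 0.46, 0.23, -0.23, 0.25, -0.84 and 0.08 and a mean of -0.01 (adjusted p = 0.981).

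GABARAPL1 (NM_001033616) read 4.36, 4.81, 4.81, 4.66, 5.83 and 5.00 in CONT and 4.68, 5.35, 4.50, 5.09, 5.21 and 4.84 in REST. It was higher in cows 1, 2 and 4, by 0.31 to 0.53, and lower in cows 3, 5 and 6, by 0.17 to 0.62. The mean change was 0.03 (95% confidence interval -0.32 to 0.39, limma adjusted p = 0.915), and the remaining 2 probes of the gene changed by 0.11 and 0.02 (adjusted p = 0.758 and 0.954).

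The CONT array of cow 5 stood apart in both ATG8 genes. On that array MAP1LC3B, GABARAPL1, SQSTM1 and CTSL all had the highest value of the CONT group. For the 2 MAP1LC3B probes the array lay at 3.61 and 1.59, against 1.76 to 2.44 and 0.17 to 0.53 on the other CONT arrays. The same array was the outlying one of its group for 2.89% of all tested probes, the largest share of the 12 arrays (0.469 to 1.64% for the other CONT arrays), so its distance was not limited to these genes. Without cow 1 the change of MAP1LC3B was 0.022 and without cow 2 0.071 (limma adjusted p = 0.966 and 0.899). Without cow 5 the changes of MAP1LC3B and GABARAPL1 were 0.37 and 0.16 (adjusted p = 0.201 and 0.478), and without both cows of the dim slide they were 0.36 and 0.24 (adjusted p = 0.325 and 0.373). Neither gene was called under any alternative with a test.

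**Figure D3:**
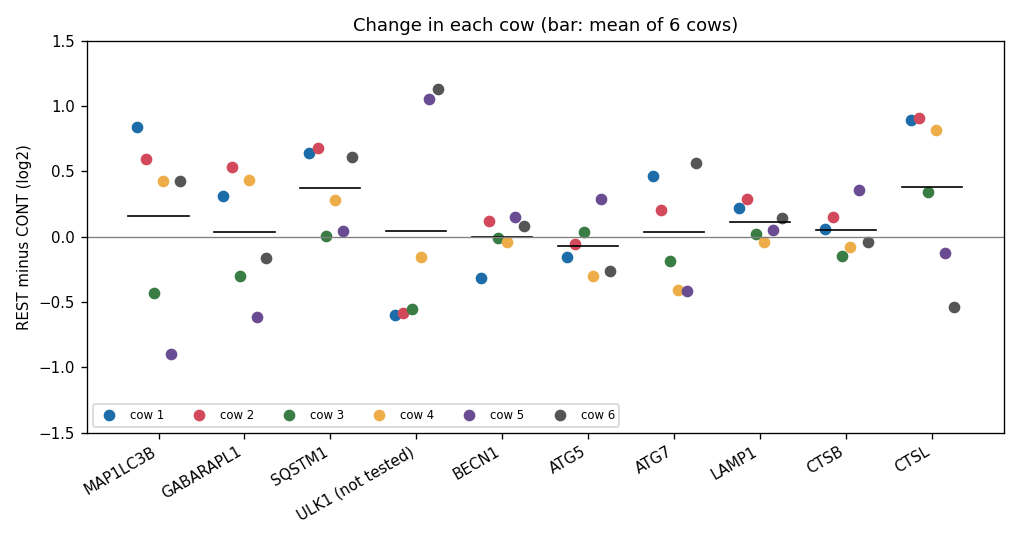
REST minus CONT in each cow (log2) for the 10 genes, 1 probe per gene, with a bar for the mean of 6 cows. Cow 5 is the lowest point for MAP1LC3B (-0.90) and GABARAPL1 (-0.62), and cows 5 and 6 lie opposite to the other cows for ULK1.

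SQSTM1 (NM_176641) encodes p62, a receptor that binds ubiquitin-tagged cargo and ATG8 proteins and is itself degraded in the lysosome. Its probe of highest signal read 2.02, 2.09, 3.48, 2.12, 3.94 and 3.30 in CONT and 2.66, 2.77, 3.48, 2.40, 3.98 and 3.91 in REST. The rise was 0.64, 0.68, 0.28 and 0.61 in cows 1, 2, 4 and 6 and near 0 in cows 3 and 5. The mean change of 0.37 had an SE of 0.12 and a 95% confidence interval from 0.11 to 0.64, that is 1.30 times the CONT signal (1.08 to 1.56 times), and it passed the threshold with a limma adjusted p of 0.0826. Without the pairing by cow the same difference was far from the threshold (adjusted p = 0.670), where it stands beside an SD of 0.85 between cows in CONT. It was not called either with the cow as a random block (adjusted p = 0.357), with slide as the block (0.388) or with no filter on dim probes (0.202). In that unpaired limma fit 4.39% of all tested genes were called and 0 of the 9, and 0 of the 9 had an unadjusted p under 0.05. The call was also lost without cow 1 (0.32, adjusted p = 0.191), cow 2 (0.31, 0.217), cow 4 (0.39, 0.160) and cow 6 (0.33, 0.177), and without the dim slide (0.40, 0.153).

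The other 2 SQSTM1 probes pointed the same way and were not called. One read -0.12, -0.07, 0.07, -0.34, 0.63 and 0.17 in CONT and 0.42, 0.93, 0.03, 0.52, 0.23 and 0.67 in REST, a change of 0.41 (SE 0.18, limma adjusted p = 0.178). The other read 0.80, 0.86, 1.08, 0.88, 1.39 and 0.91 in CONT and 1.49, 1.78, 1.08, 1.52, 1.003 and 0.86 in REST, a change of 0.30 (SE 0.17, adjusted p = 0.291). Cows 1, 2 and 4 were higher in REST on each of the 3 probes, and cow 3 was level on each. Without cow 5, where both of these probes were lower in REST (-0.40 and -0.38), the changes were 0.57 (adjusted p = 0.0631) and 0.44 (adjusted p = 0.126). Neither probe was called without cow 6 (0.39 and 0.37, adjusted p = 0.292 and 0.278) or without the dim slide (0.59 and 0.56, adjusted p = 0.119 and 0.106).

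The probes differed in how they separated the cows. On the probe of highest signal, cows 1, 2 and 4 lay at 2.02 to 2.12 in CONT and cows 3, 5 and 6 at 3.30 to 3.94, and the same cows stayed apart in REST (2.40 to 2.77 and 3.48 to 3.98). The other 2 probes placed cows 1, 2 and 4 below the others in CONT as well, but closer to them, and in REST that order was gone on one probe and turned on the other. The 3 genes whose signal followed that of the called probe most closely over the 12 arrays, among 7930 compared, were KLK1 (Pearson r = 0.95), OCIAD2 (r = 0.93) and UTRN (r = 0.93); the 12 arrays come from 6 cows in pairs, so these values describe mainly the difference between cows. KLK1 changed by 0.63 in REST (adjusted p = 0.0589), and OCIAD2 and UTRN by 0.18 and 0.09 (adjusted p = 0.184 and 0.485).

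**Figure D4:**
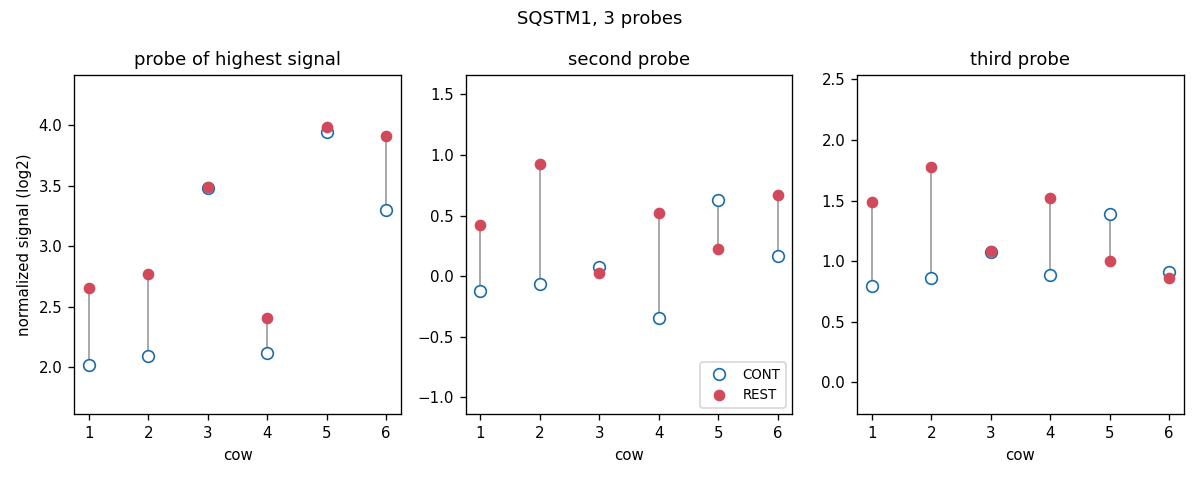
Normalized signal (log2) of the 3 SQSTM1 probes in CONT (open circles) and REST (filled circles) for each cow, with the same span on each axis. Cows 1, 2 and 4 were higher in REST on all probes, cow 3 was level, and only the first probe places cows 3, 5 and 6 above the others in both periods.

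LAMP1 (NM_001075124) encodes a heavily glycosylated protein of the lysosomal membrane. It read 4.83, 5.13, 4.86, 4.97, 5.16 and 5.22 in CONT and 5.05, 5.42, 4.88, 4.93, 5.21 and 5.37 in REST, higher in 5 of 6 cows. The change was 0.11, with the smallest SE among the 9 tested genes, 0.08 (95% confidence interval -0.07 to 0.29, limma adjusted p = 0.383). The second probe gave 0.13 (adjusted p = 0.375). With normexp background correction the change of the first probe was 0.24 and it was called (adjusted p = 0.0764), while the second then changed by 0.05 (adjusted p = 0.709).

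CTSB and CTSL are cysteine proteases of the lysosome. CTSB (NM_174031) read 4.66, 5.03, 4.85, 4.78, 4.80 and 4.82 in CONT and 4.72, 5.18, 4.70, 4.69, 5.16 and 4.78 in REST. The cows were divided, 3 higher and 3 lower, and the change was 0.05 (95% confidence interval -0.15 to 0.25, limma adjusted p = 0.759), or 0.19 with normexp background correction (-0.01 to 0.39, adjusted p = 0.195). Its other 2 probes gave 0.07 and 0.05 (adjusted p = 0.612 and 0.753).

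CTSL (NM_001083686) had 1 probe, which read 0.50, 1.08, 1.13, 0.82, 1.93 and 1.24 in CONT and 1.39, 1.99, 1.46, 1.63, 1.80 and 0.70 in REST. The change had the largest size among the 9 tested genes, 0.38, but an SE of 0.20 (95% confidence interval -0.07 to 0.83, limma adjusted p = 0.248). It was higher in REST in cows 1 to 4, by 0.34 to 0.91, and lower in cow 5 (-0.13) and cow 6 (-0.54). The gene was not called without any of cows 1 to 5 (0.28 to 0.48, adjusted p = 0.181 to 0.499). A call came only with cow 6 left out (0.56, adjusted p = 0.0958) or the dim slide with cows 5 and 6 left out (0.74, SE 0.13, adjusted p = 0.0501). The latter was a choice made after seeing the data, and both fits drop cows of the opposite direction. Whether the dimness of that slide had a part in the difference between its cows and the others was not tested.

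The pathway around these genes was described with 14 lists of 163 genes, of which 132 were tested. Of these, 23 were called, 11 higher and 12 lower (17.4%, beside 16.2% of all tested genes), and the median change was 0.01. Without the pairing by cow 7 were called (5.30%, beside 4.39%): WIPI1, OPTN, CLN3, ATP6V1F, ATP6V1E1, MANBA and NAGPA, so every other pathway call below rests on the pairing. Without the dim slide 13 were called. Counting a gene as called when any of its tested probes was gave 32.

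**Figure D5:**
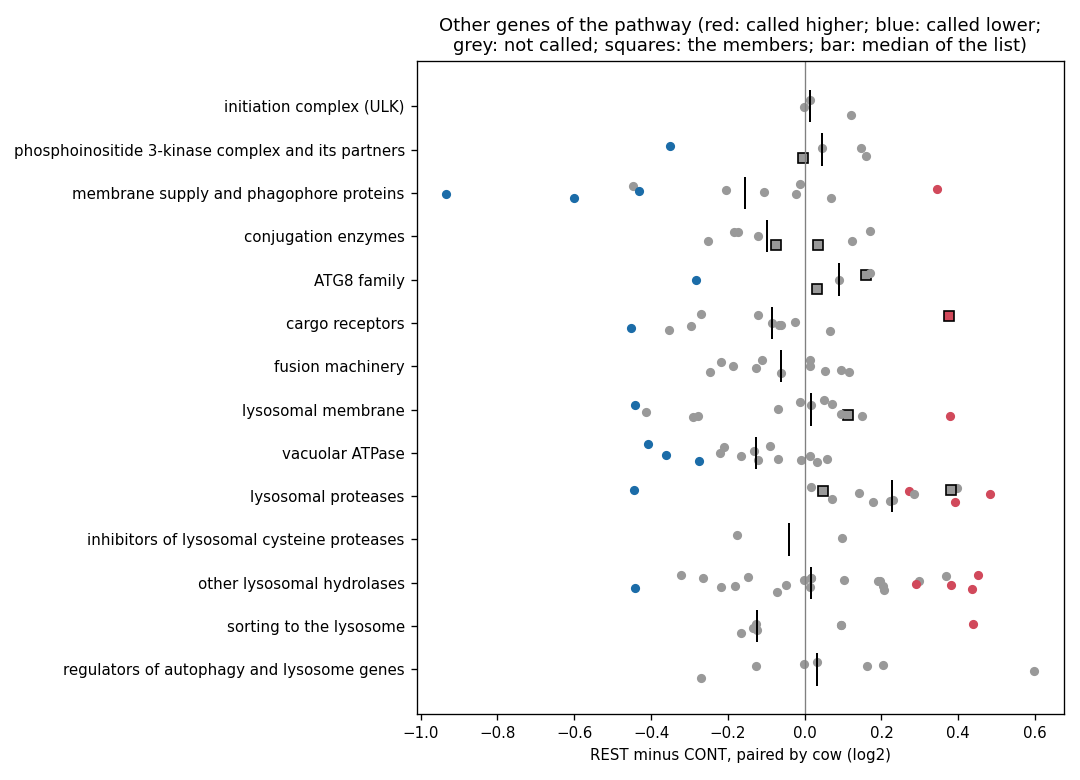
REST minus CONT (log2, paired by cow) for every tested gene of the 14 pathway lists, with bars for list medians and squares for the members. Of the lysosomal proteases 13 of 14 lie above 0, and below it lie 11 of 14 subunits of the vacuolar ATPase, 9 of 11 cargo receptors and 8 of 10 genes of membrane supply. Over all tested genes 48.7% had a higher and 51.3% a lower signal in REST.

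Among the pathway genes called, the largest change was that of WIPI1, which belongs to the list of membrane supply and the phagophore, the growing cup-shaped membrane. In that list 3 of 10 tested genes fell, 1 rose and 6 were not called, with a median of -0.15 (40.0% called, beside 16.2% of all tested genes). WIPI1, which binds phosphoinositides on the phagophore, went from 4.38 ± 0.21 to 3.45 ± 0.27 (mean ± SD, n = 6), and the paired difference was -0.93 (SE 0.14, limma adjusted p = 0.00988). It fell in 6 of 6 cows, by 0.47 to 1.39, on 3 of 3 probes, and passed also without the pairing by cow (adjusted p = 0.00655). ATG2B, a lipid transfer protein, fell by 0.60 (SE 0.12, adjusted p = 0.0238) in 6 of 6 cows. Both were called without each cow in turn. ZFYVE1 changed by -0.43 (adjusted p = 0.0741) and kept its call with cow 2 left out but lost it without any other cow (-0.55 to -0.36). WDR45B, named after its value was seen, changed by 0.35 (adjusted p = 0.0780) and kept its call with cow 5 left out but lost it without any other cow (0.27 to 0.41). The other tested probe of WDR45B had the same sign and was not called.

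None of the 3 tested genes of the ULK1 complex and none of the 8 conjugation enzymes was called by its probe of highest signal, although 1 of 3 tested ATG13 probes, from the ULK1 complex, was called. Among the 5 tested genes of the BECN1 complex, PIK3C3, its catalytic subunit, fell by 0.35 (limma adjusted p = 0.0639) in 6 of 6 cows. The other tested probe of PIK3C3 had the opposite sign, and the call was lost without cow 1, 2, 3 or 4 (-0.40 to -0.28). In the ATG8 family, MAP1LC3A fell by 0.28 (adjusted p = 0.0855), a call held without cow 5 and lost without any other cow (-0.34 to -0.24), and the other 4 tested members were not called. The other tested probe of MAP1LC3A was also lower and was not called. Of the 11 cargo receptors, OPTN fell by 0.45 (SE 0.09, adjusted p = 0.0231) in 6 of 6 cows, with or without each cow and without the pairing (adjusted p = 0.0816). SQSTM1 was the other receptor called, and 9 of the 11 had a lower signal in REST (51.3% of all tested genes did). A probe other than that of highest signal was called for RETREG1 (1 of 2 tested probes) and CALCOCO2 (1 of 4). The same held for PIK3R4 of the BECN1 complex (1 of 2). These genes were named after their values were seen. None of the 11 tested genes of autophagosome and lysosome fusion was called (-0.25 to 0.12). In the lists of this paragraph 0 to 20% of the tested genes were called, beside 16.2% of all tested genes.

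Of 14 tested lysosomal proteases, 13 had a higher signal in REST (48.7% of all tested genes did) and the median change was 0.23, but 10 were not called; 3 were called higher and 1 lower (28.6%, beside 16.2% of all tested genes). CTSS changed by 0.48 (limma adjusted p = 0.0763), CTSF by 0.39 (adjusted p = 0.0388) and CTSD, an aspartic protease named after its value was seen, by 0.27 (adjusted p = 0.0751). The other tested probe of CTSS was higher too and was not called. CTSZ went the other way, from 5.29 ± 0.28 to 4.85 ± 0.32 (-0.44, adjusted p = 0.0458), in 6 of 6 cows. None of these calls held with each cow left out, while the changes kept their sign. CTSS (0.40 to 0.63) and CTSD (0.23 to 0.31) were called without cow 1 and not without any other, CTSF was lost without cow 2 or 4 (0.36 to 0.47), and CTSZ without cow 1 or 4 (-0.49 to -0.35). Without the dim slide 2 of the list were called, with a median of 0.24, and without the pairing by cow none was.

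CTSS is known from antigen-presenting cells, and markers of such cells were set beside it. For the counts that follow, 16.2% of all tested genes were called, 7.12% higher and 9.10% lower. Of 10 tested macrophage markers 4 were higher and 6 lower in REST, with changes from -0.47 to 0.46. Of these 1 was called, C1QA, which fell by 0.47 (limma adjusted p = 0.0379). With a cow left out C1QA changed by -0.53 to -0.39, the call being lost without cow 4. The mean level of the list ran from 0.26 to 1.16 in CONT and from 0.30 to 1.01 in REST, higher in 3 of 6 cows. Of 8 other leukocyte markers, CD3E (0.35, adjusted p = 0.0767) and CORO1A (0.38, adjusted p = 0.0393) were called higher, and the mean level of that list ran from 0.42 to 0.81 in CONT and from 0.50 to 1.05 in REST, higher in 5 of 6 cows. CD3E was called without cow 5 and not without any other cow (0.28 to 0.42), and CORO1A was lost without cow 2 (0.34 to 0.43). Among the 6 luminal epithelial markers, 4 higher and 2 lower, KRT8 (0.72, adjusted p = 0.00875) and KRT18 (0.52, adjusted p = 0.0675) were called higher, the latter not without cow 1, 2, 3, 4 or 5 (0.42 to 0.66), and neither was called without the pairing by cow. The mean level of the luminal list was higher in REST in 6 of 6 cows. Of 6 endothelial markers VWF (0.54, adjusted p = 0.00727) and CLDN5 (0.74, adjusted p = 0.0115) were called higher, also without the pairing by cow, with a list median of 0.23 and a mean level higher in 5 of 6 cows. FABP4, the adipocyte marker that was tested, was lower in 6 of 6 cows (-0.35, adjusted p = 0.0455; -0.41 to -0.31 with a cow left out, and not called without cow 1, 2, 4 or 6). Of 5 myoepithelial markers, 3 higher and 2 lower with a median of 0.11, ACTA2 was called lower (-0.37, adjusted p = 0.0873; called then only without cow 4), and of 2 skeletal muscle markers CKM (-0.36, adjusted p = 0.0712; called then only without cow 5), while ACTA1 changed by 0.02. None of 6 fibroblast markers was called, with a median of -0.36 and 4 of 6 lower, and the tested erythrocyte marker changed by -0.33 and was not called. The part of these cell types in the protease values was not tested.

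The vacuolar ATPase is the proton pump that acidifies the lysosome. Of 14 tested subunits 11 had a lower signal in REST (51.3% of all tested genes did), 3 were called, all lower (21.4%, beside 9.10% of all genes called lower), and the median change was -0.13. The mean level of the list was lower in 6 of 6 cows. ATP6V1F fell by 0.41 (SE 0.09, limma adjusted p = 0.0355), ATP6V1E1 by 0.36 (SE 0.08, adjusted p = 0.0364) and ATP6V1H by 0.27 (SE 0.08, adjusted p = 0.0782), each in 6 of 6 cows. The first pair was also called without the pairing by cow (adjusted p = 0.0489 and 0.0586) and lost without cow 2 or 4 (-0.46 to -0.36 and -0.39 to -0.32). ATP6V1H was called without cow 5 and not without any other cow (-0.30 to -0.22). Of 3 tested ATP6V1E1 probes, all lower, 2 were called.

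Other lysosomal genes moved in both directions. In the lysosomal membrane list, CLN3 fell by 0.44 (SE 0.09, limma adjusted p = 0.0246) in 6 of 6 cows and was called with each cow left out. Its second tested probe was lower too and was not called. LAPTM5 changed by 0.38 (adjusted p = 0.0846), a call held without cow 4 and lost without any other cow (0.30 to 0.46). The other 11 of 13 were not called (15.4% called, beside 16.2% of all tested genes). Of 23 further hydrolases, 4 were called higher, beside 7.12% of all tested genes called higher. MANBA, which cleaves mannose from glycoproteins, rose by 0.45 (SE 0.08, adjusted p = 0.0167) in 6 of 6 cows, by 0.34 to 0.63, and was called with each cow left out. ARSB changed by 0.44 (adjusted p = 0.0629), or 0.38 to 0.57 with a cow left out, and was called then only without cow 1. Its probe was not well above background in CONT of cow 6 and entered the test through REST. The other tested probe of ARSB was also higher and was not called. ARSA and ASAH1, named after their values were seen, changed by 0.38 and 0.29 (adjusted p = 0.0588 and 0.0971); ARSA was lost without cow 1, 2, 4 or 6 (0.33 to 0.47), and ASAH1 was called without cow 5 and not without any other cow (0.23 to 0.35).

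Among 7 genes that sort enzymes to the lysosome, NAGPA, which uncovers the mannose 6-phosphate tag, rose by 0.44 (SE 0.10, limma adjusted p = 0.0345) in 6 of 6 cows, a call lost without cow 4 (0.39 to 0.49 over the cows left out). Of the regulators, TFEB, TFE3, MITF, FOXO3, FLCN, DEPP1 and BNIP3 were tested and none was called (changes from -0.27 to 0.60). Their median change was 0.03, with 4 higher and 3 lower. Without the dim slide the median was 0.12 and 1 regulator was called. TFEB, the transcription factor best known for driving lysosomal genes, changed by 0.03 (adjusted p = 0.839). Neither of the 2 tested inhibitors of cysteine proteases, CST3 and CST6, was called. Beside the counts of this paragraph, 16.2% of all tested genes were called.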

How the data were processed

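Per the labels, total RNA of each biopsy was labelled with Cy3 and the submitters' processing notes name Agilent Feature Extraction 11 for reading the arrays. Scanner files and series table, both deposited, gave 1 identical processed signal per spot, a linear intensity from which the authors' software had subtracted background, with no scaling between arrays. Here it was log2-transformed, repeat spots were averaged, the 75th percentile of each array was subtracted, and marked spots (1 to 13 per array) were left out. Probes well above background on every array of at least 1 group were tested (19406 of 43653). Symbols came from RefSeq accessions (ARS-UCD2.0 gene table), which named 62.2% of probes; array and table refer to different assemblies, so no positions are given. The probe of highest mean signal stood for a gene. REST was compared with CONT in limma 3.58.1 (R 4.3.3), with the cow as a fixed block and Benjamini-Hochberg adjustment over all tested probes (threshold 0.1); p-values are two-sided. The labels give the same animals in both periods, and the 2 arrays of a cow deviated together (r 0.356 to 0.574 across probes; -0.33 to 0.13 between cows). The scripts were tested on simulated data. The number of arrays limits the precision.

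Named genes were the 10 members, at most 3 called genes of each pathway list, and the 3 genes most like the called member. A gene that this rule names is not reported here. The members and lists were chosen with earlier results of these data known. Alternatives were no block, cow as a random block, slide as a block, median shift, quantile normalization, normexp (offset 50, on median signals, the mean not being among the columns used here), the series table, other filters on dim probes, marked spots kept, eBayes with trend and robust, statistics without moderation of the variance, a threshold of 0.05, other probe rules, each cow left out, and, added after seeing the data, slide 3 left out.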

Additional observations from a re-analysis of the deposited data

Results flagged for a closer look

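In groups of 6 arrays, values whose distance to the nearest other value took up more of the range than Dixon's 95% critical value for 6 were singled out. Of 76 groups checked for the members and the named pathway genes, 7 held such a value, and chance gives about 1 in 20, or 3.8. Of the 7, 5 belonged to the CONT array of cow 5. For MAP1LC3B that array lay at 3.61 against 1.76 to 2.44 on the other CONT arrays (gap over range 0.633), and on the second MAP1LC3B probe at 1.59 against 0.17 to 0.53 (0.747). A GABARAPL1 probe read 3.30 there against 1.68 to 2.26 (0.642), the dimmer ATG5 probe -3.50 against -1.85 to -1.13 (0.696), and WIPI1 4.78 against 4.17 to 4.38 (0.666). PIK3C3 read 3.84 in CONT of cow 2 against 4.26 to 4.36 (0.801), and CTSS 1.75 in CONT of cow 6 against 2.07 to 2.25 (0.640). Without cow 5 the change of WIPI1 stayed past the threshold.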

How the results depend on the processing

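Of the 9 tested members, MAP1LC3B, GABARAPL1, BECN1, ATG5, ATG7 and CTSB stayed uncalled in every alternative with a test. SQSTM1 was called in 9 of 19 of them, with adjusted p from 0.0128 to 0.725. Without the replicate block (no pairing by cow) 831 of all tested probes, 0 member genes, 0 member probes and 7 pathway genes were called, in place of 3101, 1, 1 and 23. With slide as the block these counts were 1901, 0, 0 and 12; with the cow as a random block 3535, 0, 0 and 26; without moderation or block 732, 0, 0 and 7; with no filter on dim probes 384, 0, 0 and 1; and at an adjusted p of 0.05 1525, 0, 0 and 11. Normexp gave 2 member genes (LAMP1 and SQSTM1) and 3 member probes. Without slide 3, an alternative chosen after seeing the data, 2 member genes (CTSL and ULK1), 2 member probes and 13 pathway genes were called. With each cow left out the counts ran from 1053 to 3235 probes, 0 to 1 member genes, 0 to 2 member probes and 7 to 23 pathway genes; the lowest probe count was without cow 2 and the lowest pathway count without cow 4. The causes were not tested.

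Changes near 0 turned sign. BECN1 was 0.0027 with quantile normalization, 0.069 with normexp, 0.084 as the median of its probes and -0.035 to 0.057 with a cow left out. ATG7 was -0.14 with normexp and -0.070 to 0.13 with a cow left out, GABARAPL1 -0.068 to 0.16 and CTSB -0.014 to 0.087. CTSB was -0.0072 without slide 3, and ATG5 0.10 as the median of its probes. The dim slide limits ULK1, ATG7 and 2 of the 3 ATG5 probes, which lay near background there.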
